A study of Mus musculus with 10 samples.

Results

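Among 21923 genes with a protein-coding transcript, 40 were high on day 3 of mouse fibroblast reprogramming and at least 3-fold lower in every other stage measured. The genes were chosen on the values themselves: TPM, a read level scaled for transcript length and library total, was summed per gene, and a gene was taken when its day 3 mean was at least 5 TPM and at least 3 times the mean of each of the other 4 groups. Of the 21923 genes, 7718 had a day 3 mean of at least 5 TPM. The day 3 peak of the 40 is therefore the choice and not a finding, and no test was made of it.

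RNA was measured by single-end RNA-seq in 10 libraries, 2 for each of 5 groups, from mouse cells of a C57BL/6 x 129 background. Mouse embryonic fibroblasts (MEF) carried the genotype OKSM Col1a1/M2rtTA ROSA26, that is, a cassette of Oct4, Klf4, Sox2 and Myc that doxycycline switches on, and were taken unsorted from MEF medium without doxycycline. Cells of that genotype were collected after 3, 6 and 9 days (D3, D6, D9) in embryonic stem cell medium with 1 ug/ml doxycycline and 50 ug/ml ascorbic acid, whole cultures at day 3 and cells sorted for SSEA1, a surface marker of cells on the way to pluripotency, at days 6 and 9. Embryonic stem cells (ESC) were the V6.5 line, which does not carry that genotype, grown on irradiated feeder cells and taken unsorted. All libraries carried the same batch label. The change from whole cultures to sorted cells falls between day 3 and day 6, so time and sorting cannot be told apart in any comparison across that step, and in bulk RNA fewer cells of a type and less RNA per cell cannot be told apart either.

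Induced reprogramming starts from fibroblasts that make large amounts of extracellular matrix, and the first days are known for loss of that fibroblast program and a shift towards epithelial features, well before the pluripotency network is active. Cells pass through states that belong neither to the starting nor to the final cell type, and only some of the cells go on.

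Depth ran from 29585876 to 38275024 estimated reads per library. The summed level of 12 fibroblast markers was 9451 to 9933 TPM in MEF, 496 to 520 at day 3, 24.1 to 25.5 at day 6, 11.6 to 11.7 at day 9 and 841 to 887 in ESC, where feeder cells were part of the culture. The 10 pluripotency markers summed to 0.873 to 1.37 TPM at day 3 and to 2823 to 2841 TPM in ESC. Mean levels of the cassette genes in MEF and at day 3 were 2.63 and 176 TPM for Pou5f1 (Oct4), 81.0 and 184 TPM for Klf4, 0.852 and 66.6 TPM for Sox2, and 37.2 and 110.3 TPM for Myc, with reads of the cassette and of the cell's own genes counted together. The MEF libraries differed from the induced ones in sex-linked RNA: Xist averaged 0.110 TPM in MEF and 163 at day 3, and the Y-linked gene Ddx3y averaged 11.1 and 0.0103 TPM, so induction and the embryos the cells came from cannot be told apart between MEF and the induced cells. Among the 40 genes, 2 (5%) lie on the X chromosome, against 4.31% of coding genes, and none on Y.

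At day 3 the 40 genes together made up 1995 and 2043 TPM in the 2 libraries. The same sum was 293 and 277 TPM in MEF, 324 and 321 at day 6, 181 and 189 at day 9 and 65.5 and 72.3 in ESC. Day 3 means of single genes ran from 6.31 TPM (Snap91) to 308 TPM (Igfbp3), with a median of 21.8 TPM. The day 3 mean was 3.11 times (Gdpd2) to 23.0 times (Hes5) the next highest group, with a median of 4.23 times. That next group was day 6 for 26 genes, MEF for 13 and day 9 for Hes5. Both day 3 libraries stood above every other library for all 40 genes.

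The libraries of a pair lay close together at day 3: the coefficient of variation between them had a median of 3.24%, was under 10% for 35 genes and was highest for Hes5 (32.8%). After day 3 the levels went down in an ordered way for most of the genes. Day 6 held a median of 21.6% of the day 3 level (range 3.49% to 32.2%) and day 9 a median of 11.96%. In mean TPM, day 9 was below day 6 for 39 genes and the order day 6 over day 9 over ESC held for 35. ESC was the lowest group for 31 and MEF for 6, and 27 genes were under 1 TPM in ESC. With edgeR on counts, the log2 fold change from day 6 to day 9 was below 0 for 37 genes. It was above 0 for Lmo7, Slc16a11 and Entpd1.

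**Figure D1:**
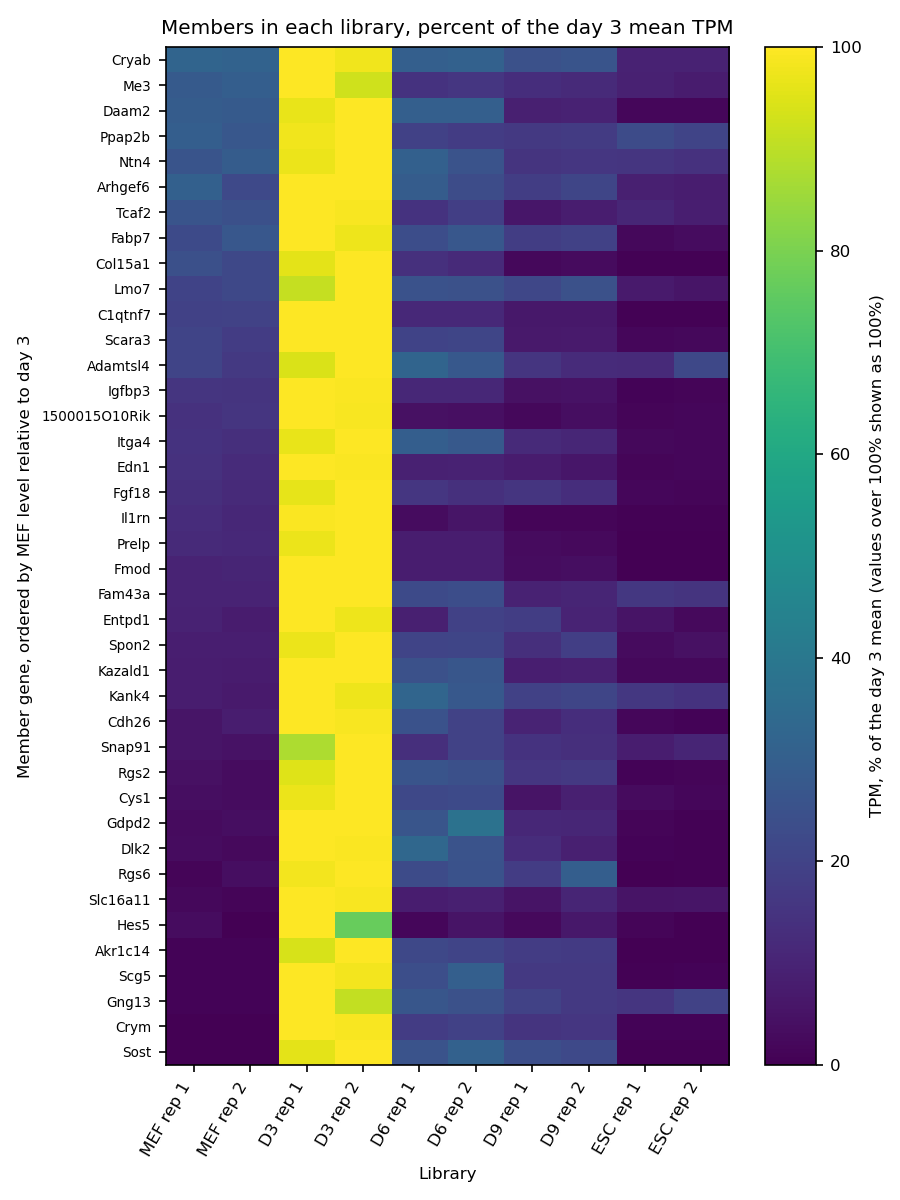
Level of each of the 40 genes (rows, ordered by MEF level relative to day 3) in each of the 10 libraries (columns), as colour, in percent of the day 3 mean TPM, with values over 100% shown as 100%. Both day 3 columns are bright in every row, the MEF columns go from about the level of day 6 at the top to near 0 at the bottom, and the ESC columns are the darkest for most rows.

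Promoter sequences are shown for 4 genes: Igfbp3, the highest at day 3, Fmod and Prelp, which neighbour each other, and Sost, which was all but silent outside the induced cells. The runs are the 190 bases before the RefSeq start site, 5' to 3' on the strand of the gene (RefSeq table, GRCm38.p6). Capitals mark matches to a Kruppel-like factor letter pattern (GGGNGTGG or its reverse complement, the KLF motif) and to the CCAAT box (CCAAT or ATTGG).
Igfbp3: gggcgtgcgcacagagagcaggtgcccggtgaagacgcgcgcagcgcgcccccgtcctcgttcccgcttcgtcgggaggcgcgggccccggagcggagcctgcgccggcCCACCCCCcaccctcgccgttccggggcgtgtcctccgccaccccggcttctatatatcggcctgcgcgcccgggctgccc
Fmod: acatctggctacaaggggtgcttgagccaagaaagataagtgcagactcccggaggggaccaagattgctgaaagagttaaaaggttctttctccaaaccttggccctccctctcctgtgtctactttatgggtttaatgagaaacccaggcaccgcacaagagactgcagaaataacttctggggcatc
Prelp: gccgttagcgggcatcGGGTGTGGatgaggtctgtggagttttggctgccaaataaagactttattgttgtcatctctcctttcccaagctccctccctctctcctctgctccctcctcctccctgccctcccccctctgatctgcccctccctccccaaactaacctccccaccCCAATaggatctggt
Sost: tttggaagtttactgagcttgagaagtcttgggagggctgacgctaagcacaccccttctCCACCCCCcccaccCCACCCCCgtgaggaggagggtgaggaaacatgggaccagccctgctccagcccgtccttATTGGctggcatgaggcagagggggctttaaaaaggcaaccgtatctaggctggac
The Igfbp3 run spans chr11:7213924-7214113 on the minus strand, with CCACCCCC at position -81 from the start. The Fmod run spans chr1:134037064-134037253 on the plus strand and holds neither pattern. The Prelp run spans chr1:133921402-133921591 on the minus strand, with GGGTGTGG at position -174 and CCAAT at position -15. The Sost run spans chr11:101967016-101967205 on the minus strand, with CCACCCCC at positions -130 and -116 and ATTGG at position -56.

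Promoters of 35 of the 40 genes were in the table, and for 30 of them a RefSeq start lay within 1000 bases of the start of the transcript with the most reads (25 within 100 bases). The 1000-base limit was chosen after the data were seen. In those 30 promoters, from 250 bases before to 50 after the start and on both strands, the KLF motif GGGNGTGG was found in 10 (33.3%), against 17.6% of all 32851 promoters. GGGCGGGG, the GC box of KLF and SP factors, was found in 7 (23.3% against 17.6%), CCAAT in 12 (40% against 37.4%) and the TEAD motif GGAATG in 5 (16.7% against 14.7%). The OCT motif ATGCAAAT was found in Il1rn alone (3.33% against 1.74%), the SOX motif CATTGTT in Akr1c14 alone (3.33% against 3.78%), the CRE motif TGACGTCA in Daam2 alone (3.33% against 1.79%) and the RUNX motif TGTGGTT in Igfbp3 alone (3.33% against 5.27%). No match was found for the AP-1 motif TGANTCA, which 7.81% of all promoters hold, the TATA box TATAAA (13.6%), the E-box CACGTG (7.15%), the ETS motif CCGGAAG (8.86%) or the NF-kB motif (0.411%). Median GC content was 58.3% in the 30 promoters and 52.7% in all. These are letter matches, and binding was not measured here.

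The largest group by role was 9 genes for matrix and matrix-bound proteins, which held the 3 highest day 3 levels of the 40. Fmod (chromosome 1, 134037254 to 134048277, plus strand, GRCm38) encodes fibromodulin, a small leucine-rich proteoglycan that binds collagen fibrils, and was 27.0 and 27.5 TPM in MEF, 270.2 and 271 at day 3, 21.8 and 21.9 at day 6, 9.33 and 10.1 at day 9 and 0.466 and 0.566 in ESC. Prelp, a related leucine-rich proteoglycan, was 8.02 and 7.82 TPM in MEF, 65.6 and 69.4 at day 3, 5.31 and 5.41 at day 6, 1.86 and 1.81 at day 9 and 0.252 and 0.236 in ESC. For both genes the order was the same, with day 3 far above MEF, MEF above day 6, and next to nothing in ESC, and no pair of libraries from neighbouring groups overlapped.

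Igfbp3 (chromosome 11, 7206086 to 7213923, minus strand) encodes a secreted protein that binds insulin-like growth factors. It was 47.9 and 46.4 TPM in MEF, 309.6 and 307 at day 3, 34.0 and 33.9 at day 6, 14.2 and 14.5 at day 9 and 3.60 and 3.82 in ESC. Col15a1, a collagen of basement membrane zones, was 66.5 and 59.0 TPM in MEF, 259 and 283 at day 3, 37.9 and 32.4 at day 6, 5.72 and 7.67 at day 9 and 1.21 and 1.64 in ESC. Its day 9 and ESC levels were a small part of the day 6 level, while its MEF level was the highest among the 40. Only 43.5% of the Col15a1 day 3 TPM came from coding transcripts, the rest from non-coding ones, with 40.6% of the total from a single transcript of 345 bases.

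Adamtsl4, an ADAMTS-like protein of microfibrils, was 16.6 and 13.5 TPM in MEF, 76.5 and 86.0 at day 3, 26.3 and 22.2 at day 6, 12.5 and 9.92 at day 9 and 9.64 and 17.5 in ESC, and its ESC libraries differed from each other more than its MEF and ESC means did. Spon2, a secreted protein of the F-spondin family, was 2.54 and 2.60 TPM in MEF, 29.7 and 31.3 at day 3, 6.23 and 6.41 at day 6, 4.07 and 5.70 at day 9 and 0.914 and 1.35 in ESC. Both genes were above their MEF libraries in each day 6 library. Kazald1, a secreted protein with an IGF-binding domain, was 2.60 and 2.48 TPM in MEF, 32.4 and 32.5 at day 3, 8.10 and 8.66 at day 6, 2.70 and 2.85 at day 9 and 0.740 and 0.749 in ESC. Ntn4, a netrin that binds laminin, was 4.68 and 5.27 TPM in MEF, 17.6 and 18.7 at day 3, 5.52 and 4.62 at day 6, 2.75 and 2.83 at day 9 and 2.81 and 2.61 in ESC, and for it MEF and day 6 libraries overlapped. C1qtnf7, a secreted protein of the C1q and TNF-related family, was 3.08 and 3.12 TPM in MEF, 15.9 and 15.9 at day 3, 1.80 and 1.86 at day 6, 0.996 and 1.03 at day 9 and 0.0835 and 0.0743 in ESC.

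Fmod, Prelp and Col15a1 belong to the list of collagen and small proteoglycan genes, and their own direction here is fixed by the choice. Of the 50 other collagen and small proteoglycan genes tested, 35 were lower at day 3 than in MEF and 4 were higher, at an edgeR adjusted p under 0.05 and at least a 2-fold change, with a median log2 fold change of -2.57. In that comparison the shares over all 20165 tested genes were 14.5% and 14.6%. From day 3 to day 6, 36 of the 50 were lower and 3 higher (10.2% and 9.26% of all genes), with a median of -2.59. Col1a1, the main fibrillar collagen chain of fibroblasts, averaged 3281 TPM in MEF, 96.3 at day 3 and 2.13 at day 6. Dcn (decorin), a small proteoglycan like Fmod, averaged 42.1, 2.46 and 0.547 TPM, and Lum (lumican) 8.02, 0.347 and 0.0112 TPM. Higher at day 3 and then lower at day 6 were Col2a1 (4.84, 13.1 and 0.405 TPM in MEF, day 3 and day 6), Col6a5 (0.137, 0.936 and 0.261 TPM) and Col4a3, whose call came from counts while its TPM was 0.232, 0.230 and 0.0971. The list was matched by symbol and also took in Col4a3bp, which is no collagen and passed in neither comparison. Under the other scalings, 33 to 35 of the 50 were lower and 2 to 5 higher at day 3.

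**Figure D2:**
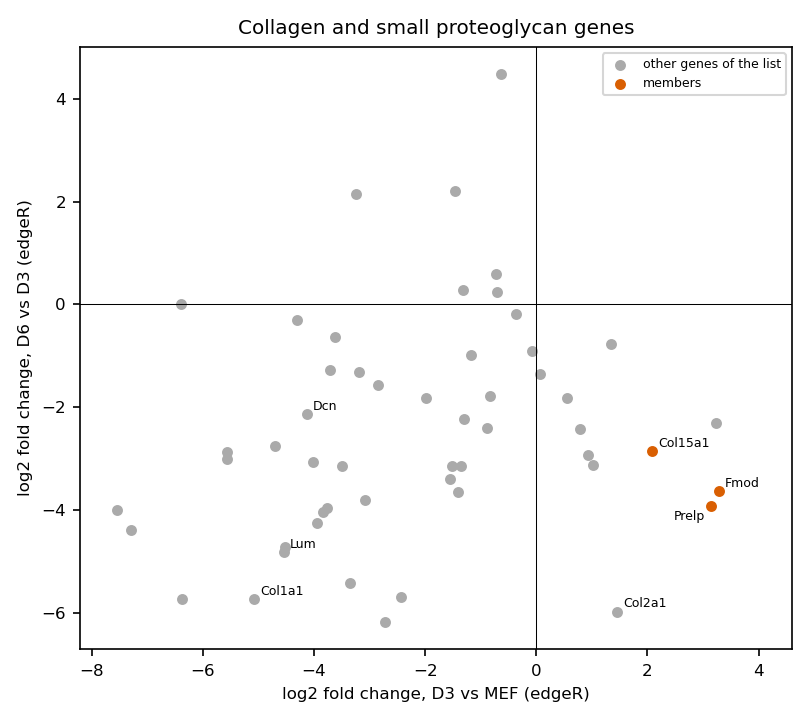
Each point is one tested collagen or small proteoglycan gene, with its edgeR log2 fold change from MEF to day 3 on the x axis and from day 3 to day 6 on the y axis. Fmod, Prelp and Col15a1 (orange, chosen for this pattern) lie at the lower right, while most of the 50 other genes (grey) lie at the lower left, lower at both steps.

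Fmod and Prelp are the only neighbours among the 40: they lie on chromosome 1 with 115840 bases between them, Prelp at 133910304 to 133921414 on the minus strand. Btg2, on the far side of Fmod, averaged 27.1 TPM in MEF, 30.4 at day 3 and 15.5 at day 6. Optc, the small proteoglycan gene on the far side of Prelp, averaged 0.859, 0.554 and 0.176 TPM. Neither flanking gene was called higher at day 3. Among the 64 tested genes next to any of the 40, 14 (21.9%) were higher at day 3 than in MEF and 13 (20.3%) lower at day 6 than at day 3, where all tested genes gave 14.6% and 10.2%. The 64 leave out the 40, while the shares over all tested genes include them. Both calls held for 2 of the 64, and for 1.74% of all tested genes. These were Psd4 beside Il1rn (2.97 TPM in MEF, 19.0 at day 3 and 1.80 at day 6) and Akr1c18 beside Akr1c14 (0, 0.648 and 0.0218 TPM). Akr1c18 and Akr1c14 belong to the same gene family, and whether reads were shared between them was not tested.

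Secreted signals and their antagonists made up 6 genes. Il1rn encodes the interleukin-1 receptor antagonist, which occupies the receptor without signalling, and was 14.9 and 13.2 TPM in MEF, 117 and 119 at day 3, 4.13 and 6.65 at day 6, 1.67 and 1.66 at day 9 and 0.903 and 0.479 in ESC. Each day 6 library was below both MEF libraries, and each day 9 library below both day 6 libraries. 1500015O10Rik (also known as Ecrg4), the precursor of a secreted peptide, was 5.24 and 5.76 TPM in MEF, 37.5 and 36.7 at day 3, 1.63 and 1.45 at day 6, 0.840 and 1.36 at day 9 and 0.441 and 0.588 in ESC. Edn1, the precursor of the vasoconstrictor endothelin-1, was 2.11 and 1.81 TPM in MEF, 14.9 and 14.7 at day 3, 1.36 and 1.40 at day 6, 1.14 and 0.920 at day 9 and 0.199 and 0.281 in ESC. Like Il1rn, both had a MEF level above their day 6 level in every library.

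Fgf18, a growth factor of skeletal development, was 2.77 and 2.44 TPM in MEF, 19.96 and 21.5 at day 3, 3.30 and 2.90 at day 6, 3.17 and 2.75 at day 9 and 0.388 and 0.259 in ESC, with MEF, day 6 and day 9 close together. Sost (chromosome 11, 101962458 to 101967015, minus strand) encodes sclerostin, an inhibitor of Wnt signalling made by bone cells. It was 0 and 0.0304 TPM in MEF, 8.19 and 8.89 at day 3, 2.17 and 2.66 at day 6, 2.06 and 1.88 at day 9 and 0 and 0 in ESC. The reads behind these levels were 0 and 4 in MEF, 1209 and 1147 at day 3, 289 and 347 at day 6, 266 and 312 at day 9 and 0 in both ESC libraries. Scg5, a chaperone of a prohormone convertase in neuroendocrine cells, was 0.0891 and 0.127 TPM in MEF, 11.4 and 11.1 at day 3, 2.71 and 3.40 at day 6, 1.86 and 1.88 at day 9 and 0.0450 and 0.112 in ESC. Sost and Scg5 were thus found in the doxycycline-treated groups and at trace level or 0 in MEF and ESC. Of the 87 other Wnt, Fgf, TGF-beta and BMP ligands and antagonists tested, 14 were called higher at day 3 than in MEF and 42 lower. The 82 other chemokine, interleukin and receptor genes of the list that holds Il1rn gave 9 called higher and 28 lower. Over all tested genes the shares were 14.6% and 14.5%, at the limits used for the collagen genes.

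**Figure D3:**
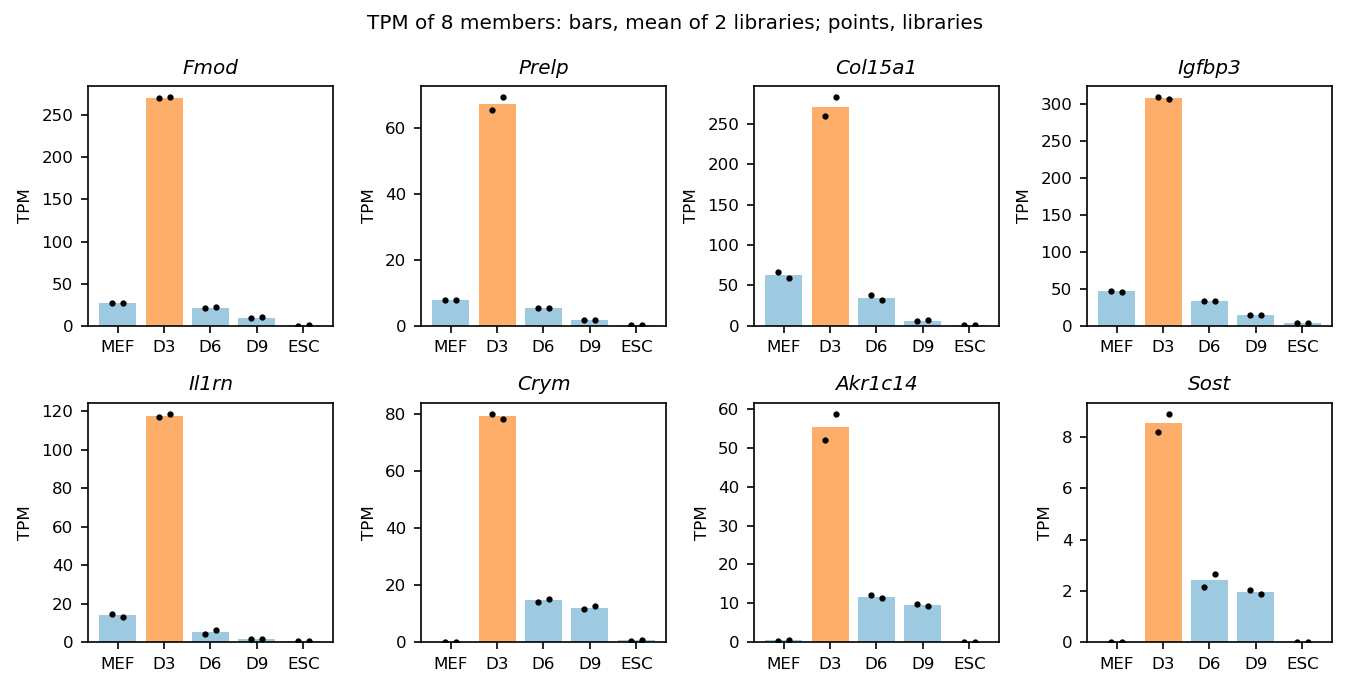
TPM of 8 of the genes in the 5 groups, each panel with its own y axis from 0; bars are means of 2 libraries and points the libraries, with day 3 in orange. In the top row and for Il1rn the MEF bar is the second highest, while for Crym, Akr1c14 and Sost it is near 0 and day 6 and day 9 follow day 3.

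Of the surface proteins, Dlk2 and Cdh26 were under 1 TPM in MEF and the 3 others were not. Dlk2, a membrane protein with EGF-like repeats, was 0.548 and 0.437 TPM in MEF, 16.9 and 16.7 at day 3, 5.59 and 4.30 at day 6, 2.16 and 1.46 at day 9 and 0.145 and 0.117 in ESC. Cdh26, a cadherin, was 0.684 and 0.995 TPM in MEF, 12.4 and 12.1 at day 3, 3.06 and 2.42 at day 6, 1.24 and 1.58 at day 9 and 0.230 and 0.102 in ESC, with only 36.5% of its day 3 TPM from coding transcripts. In TPM, both were above their MEF level in each day 6 library. On counts, Dlk2 was called higher at day 6 than in MEF (edgeR log2 fold change 3.15) and Cdh26 was not (0.86). Itga4, the alpha 4 subunit of integrins that bind fibronectin and VCAM-1, was 1.18 and 1.09 TPM in MEF, 7.87 and 8.42 at day 3, 2.43 and 2.26 at day 6, 0.965 and 0.882 at day 9 and 0.182 and 0.158 in ESC. Scara3, a scavenger receptor-like protein, was 4.72 and 4.15 TPM in MEF, 23.2 and 23.2 at day 3, 4.72 and 4.88 at day 6, 1.62 and 1.67 at day 9 and 0.365 and 0.536 in ESC. Entpd1 (CD39), an enzyme that breaks down extracellular ATP, was 3.02 and 2.34 TPM in MEF, 32.1 and 30.5 at day 3, 2.79 and 6.08 at day 6, 5.74 and 3.10 at day 9 and 1.69 and 0.747 in ESC, and its day 6 libraries overlapped both MEF and day 9. Of the 108 other claudin, cadherin and gap junction genes tested, 12 were called higher and 63 lower at day 3 than in MEF. All tested genes gave 14.6% and 14.5%.

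Regulators of G proteins and small GTPases made up 4 genes. Rgs2, which speeds up GTP hydrolysis by G alpha subunits, was 2.54 and 1.96 TPM in MEF, 53.6 and 59.2 at day 3, 14.6 and 13.8 at day 6, 9.02 and 9.33 at day 9 and 0.461 and 0.703 in ESC. Rgs6, of the same family, was 0.130 and 0.334 TPM in MEF, 8.98 and 9.28 at day 3, 2.09 and 2.31 at day 6, 1.61 and 2.71 at day 9 and 0.00510 and 0.0604 in ESC. Gng13, a G protein gamma subunit known from taste cells, was 0.349 and 0.282 TPM in MEF, 38.9 and 32.3 at day 3, 9.54 and 8.76 at day 6, 6.99 and 5.90 at day 9 and 5.51 and 6.97 in ESC. All 3 were higher at days 6 and 9 than in MEF in every library, and Gng13 was also higher in ESC than in MEF. Arhgef6, an exchange factor for Rac and Cdc42, was 2.26 and 1.63 TPM in MEF, 7.37 and 7.32 at day 3, 2.14 and 1.70 at day 6, 1.32 and 1.54 at day 9 and 0.643 and 0.582 in ESC, with MEF and day 6 overlapping.

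Enzymes, transporters and lipid-binding proteins made up 7 genes, and 4 of them (Crym, Akr1c14, Slc16a11 and Gdpd2) were under 1 TPM in MEF. Crym encodes mu-crystallin, which binds thyroid hormone, and was 0.247 and 0.183 TPM in MEF, 79.9 and 78.3 at day 3, 14.1 and 15.3 at day 6, 11.7 and 12.6 at day 9 and 0.631 and 0.869 in ESC. Akr1c14, a hydroxysteroid dehydrogenase, was 0.455 and 0.613 TPM in MEF, 52.0 and 58.6 at day 3, 12.1 and 11.4 at day 6, 9.91 and 9.40 at day 9 and 0.0855 and 0.152 in ESC. Between MEF and day 3 these went from a trace to levels above the median of the 40, and at day 9 both were still far above every MEF library. Slc16a11, of the monocarboxylate transporter family, was 0.7996 and 0.620 TPM in MEF, 40.4 and 39.5 at day 3, 3.13 and 3.52 at day 6, 2.13 and 4.12 at day 9 and 2.10 and 2.19 in ESC. Gdpd2, a glycerophosphodiester phosphodiesterase, was 0.430 and 0.579 TPM in MEF, 15.4 and 15.5 at day 3, 4.10 and 5.85 at day 6, 1.71 and 1.68 at day 9 and 0.188 and 0.0765 in ESC. Slc16a11 had already gone down to a few TPM at day 6, while Gdpd2, on the X chromosome, kept the largest share of its day 3 level (32.2%).

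The 3 others of this group were expressed in MEF. Ppap2b (Plpp3), a phosphatase of lipid phosphates, was 6.07 and 5.52 TPM in MEF, 19.9 and 20.8 at day 3, 3.92 and 3.62 at day 6, 3.38 and 3.56 at day 9 and 4.67 and 4.15 in ESC, with both ESC libraries above both day 9 libraries. Fabp7, a fatty acid-binding protein of neural cells, was 2.06 and 2.46 TPM in MEF, 9.34 and 8.90 at day 3, 2.17 and 2.49 at day 6, 1.64 and 1.78 at day 9 and 0.182 and 0.300 in ESC. Me3, a mitochondrial malic enzyme, was 1.88 and 1.97 TPM in MEF, 7.08 and 6.13 at day 3, 0.980 and 1.04 at day 6, 0.863 and 0.776 at day 9 and 0.613 and 0.505 in ESC. Of the 306 other solute carrier genes tested, 49 were called higher and 66 lower at day 3 than in MEF. The shares over all tested genes were 14.6% and 14.5%. The balance of the solute carriers turned (62 higher, 57 lower) with library size scaling without TMM.

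Cytoskeletal, ciliary and coat proteins made up 5 genes. Lmo7, a LIM domain protein of cell junctions, was 16.1 and 17.4 TPM in MEF, 73.5 and 87.8 at day 3, 20.3 and 19.98 at day 6, 17.0 and 19.9 at day 9 and 5.75 and 4.52 in ESC. Daam2, a formin that builds actin filaments, was 2.95 and 2.87 TPM in MEF, 9.83 and 10.5 at day 3, 3.07 and 3.09 at day 6, 0.876 and 0.957 at day 9 and 0.174 and 0.181 in ESC. The Lmo7 libraries at day 9 lay just below those of day 6, whereas each Daam2 library at day 9 was below 1 TPM. Kank4, an ankyrin repeat protein tied to actin, was 1.79 and 1.62 TPM in MEF, 23.5 and 22.3 at day 3, 7.44 and 6.35 at day 6, 4.42 and 4.82 at day 9 and 3.71 and 3.36 in ESC. Cys1, a membrane protein of primary cilia, was 0.516 and 0.462 TPM in MEF, 13.8 and 14.6 at day 3, 3.06 and 3.19 at day 6, 0.754 and 1.26 at day 9 and 0.417 and 0.273 in ESC. Snap91, a clathrin assembly protein of synapses, was 0.348 and 0.303 TPM in MEF, 5.53 and 7.09 at day 3, 0.843 and 1.26 at day 6, 0.929 and 0.861 at day 9 and 0.506 and 0.641 in ESC. Kank4 was above its MEF level in every library of the later groups. Snap91 was the only gene of its list of synaptic genes to meet the limits. Of the 106 others tested, 19 were called higher and 39 lower at day 3 than in MEF. All tested genes gave 14.6% and 14.5%.

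The remaining 4 genes fall in no group. Cryab, a small heat shock protein, was 34.4 and 33.6 TPM in MEF, 109.6 and 105 at day 3, 32.6 and 33.5 at day 6, 26.6 and 27.9 at day 9 and 10.2 and 10.2 in ESC. Hes5, a repressor that Notch signalling switches on, was 0.339 and 0 TPM in MEF, 13.0 and 8.13 at day 3, 0.187 and 0.552 at day 6, 0.249 and 0.671 at day 9 and 0.142 and 0.0250 in ESC. The Hes5 values rest on 372 and 257 reads at day 3 against 2 and 0 in MEF and 14 and 26 at day 6, and 69.0% of its day 3 TPM came from a single non-coding transcript of 350 bases. Of other Notch pathway genes, Hey1 averaged 2.72 TPM in MEF, 7.84 at day 3 and 1.06 at day 6. Hes1 averaged 108 TPM in MEF, 167 at day 3 and 33.0 at day 6, while the ligand gene Jag1 averaged 28.4, 8.69 and 7.02 TPM and the receptor gene Notch3 4.42, 0.877 and 1.69 TPM. The receptor gene Notch1 was at 39.4 and 22.9 TPM in MEF, 8.42 and 23.0 at day 3 and 24.3 and 21.7 at day 6, with MEF and day 3 overlapping. These genes were looked up after the data were seen. Among 154 other bHLH, nuclear receptor, Pax and homeobox factors tested, 32 were called higher and 29 lower at day 3 than in MEF. All tested genes gave 14.6% and 14.5%. DESeq2 called 24 and 30 of the 154. Fam43a was 2.65 and 2.59 TPM in MEF, 26.3 and 26.3 at day 3, 5.88 and 6.24 at day 6, 2.56 and 2.73 at day 9 and 4.29 and 3.98 in ESC. Tcaf2, a factor associated with an ion channel, was 2.21 and 2.06 TPM in MEF, 8.57 and 8.40 at day 3, 1.25 and 1.56 at day 6, 0.500 and 0.671 at day 9 and 0.913 and 0.712 in ESC. For Fam43a both ESC libraries were above both MEF libraries, and for Tcaf2 both were above both day 9 libraries.

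Comparisons without the day 3 libraries were not used to choose the genes against each other and were tested with edgeR across all 20165 genes that passed the count filter, all 40 among them (also when the day 3 libraries were left out of the filter). Genes were called at an adjusted p under 0.05 and at least a 2-fold change. The choice of genes caps the level of all 4 remaining groups, and counts are read against the share of all tested genes. The libraries are given as biological replicates by the submitters, but separate cultures are not named, so the p-values measure the spread between these samples only.

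At day 6, 18 of the 40 genes (45%) were still above their MEF level and 2 (5%) were below it, against 21.6% and 18.9% of all tested genes. The median log2 fold change from MEF to day 6 was 0.46 for the 40 genes and 0.16 for all. Among the largest rises were those of Sost, at 7.07 (SE 0.33; edgeR adjusted p = 2.3e-10), Crym, at 6.08 (SE 0.15; edgeR adjusted p = 4.3e-14), and Scg5, at 4.93 (SE 0.24; edgeR adjusted p = 1.2e-10). The Sost value rests on 0 and 4 reads in MEF and became 6.24 without MEF replicate 1, just under Crym (6.29), and 11.3 without MEF replicate 2. Also higher were Gng13, Akr1c14, Hes5, Rgs6, Dlk2, Cys1, Gdpd2, Rgs2, Kank4, Kazald1, Snap91, Slc16a11, Spon2, Fam43a and Itga4. The Hes5 call set 14 and 26 reads at day 6 against 2 and 0 in MEF. Lower were 1500015O10Rik, at -1.85 (SE 0.16; edgeR adjusted p = 6.5e-08), and Il1rn, at -1.02 (SE 0.07; edgeR adjusted p = 3.5e-09), close to the 2-fold limit. The Il1rn call was lost on scaling by library size without TMM factors (log2 fold change -0.74), without day 6 replicate 1 (-0.96) or without MEF replicate 1 (-0.97).

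Higher at day 6 than in MEF were 4 of 7 enzymes, transporters and lipid-binding proteins and 3 of 4 G protein and GTPase regulators. So were 3 of 5 cytoskeletal, ciliary and coat genes and 2 of the 9 matrix genes (Kazald1 and Spon2). Of the 6 secreted signals, 2 were higher and 2 lower, and 2 of 5 surface proteins and 2 of the 4 remaining genes were higher. Over all tested genes, 21.6% were higher and 18.9% lower. The roles were assigned by hand after the genes were known, and no difference between roles was tested. Fmod, Prelp, Col15a1 and Igfbp3 were below MEF by less than the 2-fold limit, with log2 fold changes of -0.34, -0.77, -0.77 and -0.49.

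**Figure D4:**
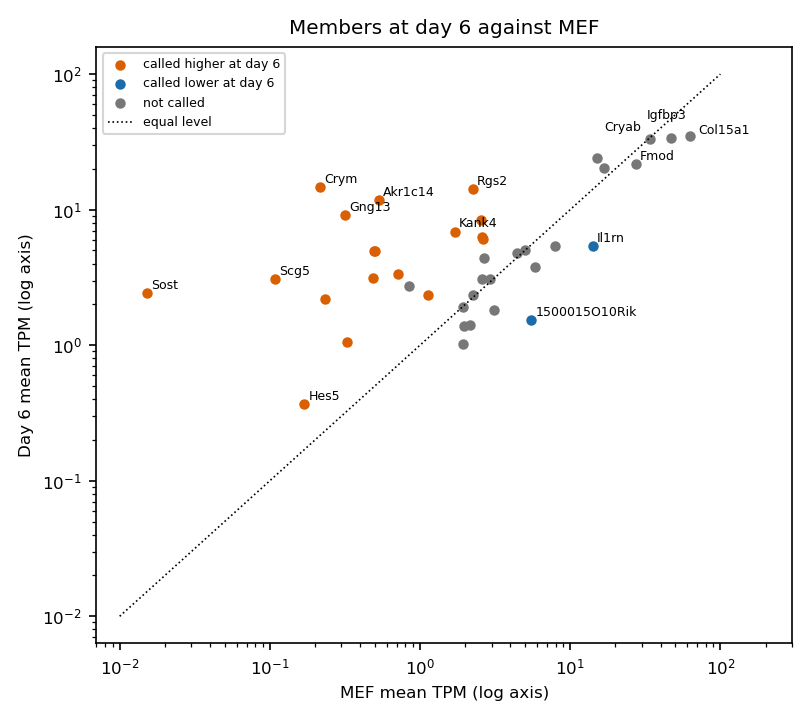
Mean TPM at day 6 (y, log axis) against mean TPM in MEF (x, log axis) for the 40 genes, each the mean of 2 libraries, coloured by the edgeR call; the dotted line marks equal levels. The 18 orange points lie above the line and the 2 blue ones (Il1rn and 1500015O10Rik) below it; the MEF level sets both the x axis and the distance from the line, so nothing is read from how they go together.

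Between days 6 and 9, both sorted, 14 of the 40 genes (35%) were lower and none was higher, against 2.68% and 5.18% of all tested genes. The median log2 fold change was -0.59, and 0 for all genes. The count of 0 higher was the same with DESeq2 and limma, and 1 gene had an unadjusted p under 0.05 in the upward direction with edgeR. The largest falls were those of Il1rn, at -2.31 (SE 0.10; edgeR adjusted p = 5.8e-10), Col15a1, at -2.21 (SE 0.05; edgeR adjusted p = 5.8e-13), and Cys1, at -1.69 (SE 0.18; edgeR adjusted p = 5.5e-06). Also lower were Daam2, Kazald1, Dlk2, Scara3, Gdpd2, Itga4, Tcaf2, Igfbp3, Fam43a, Prelp and Fmod. Matrix genes gave 5 of the 14 and surface proteins 3, while none of the 4 G protein and GTPase regulators was called. Crym, Akr1c14 and Sost differed between these days by -0.18, -0.18 and -0.21 on the log2 scale, none past the 2-fold limit.

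From day 9 to ESC, 28 of the 40 (70%) were lower and none was higher, against 14.3% and 18.6% of all tested genes, with a median log2 fold change of -2.14 (0.00496 for all genes). With edgeR 3 genes had an unadjusted p under 0.05 in the upward direction, and DESeq2 and limma also called 0 higher. Sost had no read in either ESC library. Against a floor of 3 reads in each ESC library, its ESC level was at least 94.2-fold lower than at day 9, and its fitted value is not given because it depends on the prior count. Akr1c14 was at -6.32 (SE 0.12; edgeR adjusted p = 6.7e-15) on the log2 scale and Rgs6 at -5.85 (SE 0.30; edgeR adjusted p = 3.8e-10). The Rgs6 value rests on 1 and 7.5 estimated reads in ESC and became -5.10 without ESC replicate 1 and -7.82 without ESC replicate 2, where it passed Akr1c14 (-6.46). With Sost at its bound, the median of the 40 stayed at -2.14. Not called were Hes5, Arhgef6, Kank4, Snap91, Slc16a11, Me3, Gng13, Ntn4, Adamtsl4, Ppap2b, Tcaf2 and Fam43a. All 6 secreted signals and all 5 surface proteins were among the 28.

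Set against the starting fibroblasts, ESC were lower for 27 of the 40 genes (67.5%) and higher for 4 (10%), where 20.6% and 25.5% of all tested genes were lower and higher. The median log2 fold change was -1.90, against 0.10 for all genes. The 3 largest falls were those of matrix genes: Fmod was at -5.79 (SE 0.08; edgeR adjusted p = 1.2e-16), Col15a1 at -5.52 (SE 0.06; edgeR adjusted p = 2.6e-17) and Prelp at -4.90 (SE 0.07; edgeR adjusted p = 3.9e-16). Of the 6 other matrix genes, Adamtsl4 (-0.65) and Ntn4 (-0.88) were not called. Higher in ESC were Gng13, at 4.18 (SE 0.42; edgeR adjusted p = 3.9e-07), Crym, at 1.74 (SE 0.28; edgeR adjusted p = 5.6e-05), Kank4, at 1.45 (SE 0.08; edgeR adjusted p = 4.0e-10), and Slc16a11, at 1.26 (SE 0.15; edgeR adjusted p = 2.1e-06). The Kank4 call was lost with an offset for transcript length (log2 fold change 0.97), and with limma on log2(TPM + 1) only that of Gng13 (2.45) was kept, while those of Kank4 (0.75), Crym (0.52) and Slc16a11 were lost. Fibroblast markers summed to 841 to 887 TPM in ESC, and the part of feeder RNA in the ESC levels was not tested.

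**Figure D5:**
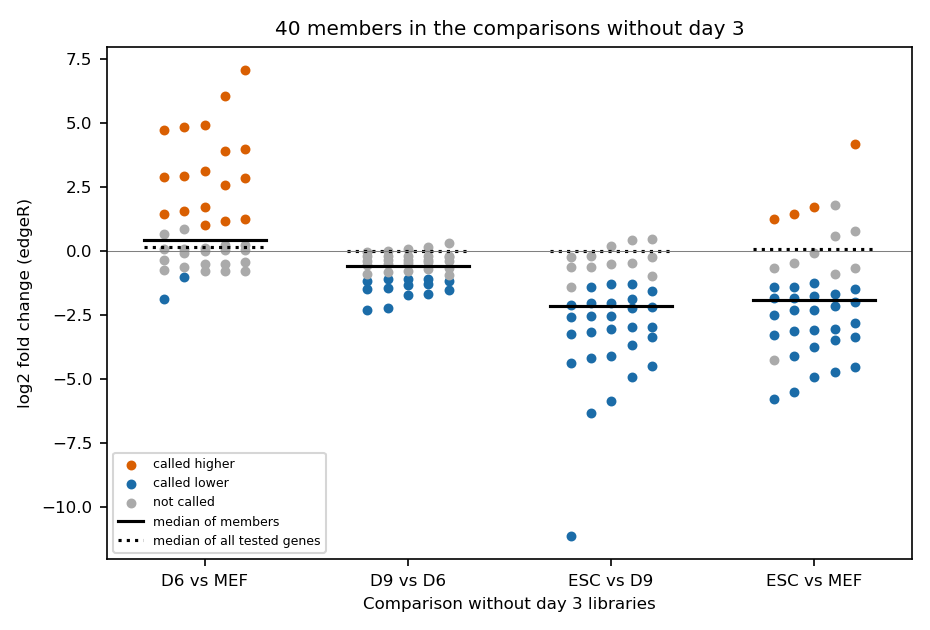
edgeR log2 fold changes of the 40 genes (points) in the 4 comparisons that hold no day 3 library, orange where called higher, blue where called lower and grey where not called; solid bars are medians of the 40 and dotted bars medians of all 20165 tested genes. The medians are 0.46 for day 6 against MEF, -0.59 for day 9 against day 6, -2.14 for ESC against day 9 and -1.90 for ESC against MEF; the lowest point, Sost in ESC against day 9, has no ESC reads, and its place depends on the prior count.

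None of the 40 genes was in any of the 10 marker lists of cell types. Of these lists, 12 macrophage markers summed to 11.3 to 11.5 TPM in MEF, 22.1 to 24.5 at day 3, 3.03 to 4.31 at day 6, 5.84 to 6.03 at day 9 and 61.7 to 63.3 in ESC. At day 3, 4 of the 12 were called higher than in MEF and none lower (14.6% and 14.5% of all tested genes). At day 6, 11 were called lower than at day 3 and none higher (10.2% and 9.26% of all). No marker was at 0 in any group mean, and 7 of 12 reached 1 TPM at day 3. Lyz2 (1.54 TPM in MEF, 5.82 at day 3, 0.224 at day 6) and C1qb (1.75, 3.69 and 0.0824 TPM) led. Ptprc (CD45), carried by white blood cells, averaged 0.124 TPM in MEF and 0.0758 at day 3. Csf1r, the macrophage growth factor receptor, averaged 0.466 and 0.267 TPM, and Mrc1 and Cd14 also had a lower mean at day 3 than in MEF. Cd68, Tyrobp, C1qa, C1qc, Fcer1g and Adgre1 had a higher mean at day 3 than in MEF. The sum of the 12 markers was highest in ESC, where Lyz2 averaged 23.8 TPM and Cd68 18.5 TPM. The part of macrophage RNA in the levels of the 40 genes was not tested.

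The 15 neuron markers summed to 70.6 to 71.5 TPM in MEF, 120 to 131 at day 3 and 104 to 118 at day 6, with Stmn2, a tubulin-binding protein, alone at a mean of 120.2 TPM at day 3; 3 of the 15 reached 1 TPM at day 3 and 1 was at 0. Endothelial markers summed to 2.95 to 4.41 TPM in MEF, 17.9 to 20.01 at day 3 and 19.2 to 22.1 at day 6, with Tek alone at 17.8 and 16.4 TPM in the day 3 libraries and no other of the 10 averaging 1 TPM there. Muscle markers were at 65.7 to 68.6 TPM in MEF and 11.1 to 11.2 TPM at day 3. Simple epithelium markers were at 7.39 to 8.69 TPM at day 3 and 376 to 394 TPM at day 9. The macrophage and neuron lists had higher sums in both day 3 libraries than in any MEF, day 6 or day 9 library, and the part of neuron-type RNA in the levels of the 40 genes was not tested either.

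Of lists that hold none of the 40, the 33 immediate early and AP-1 genes gave 2 called higher and 18 lower at day 3 than in MEF. The counts that follow are calls too, and over all tested genes 14.6% were called higher and 14.5% lower. The 40 p53 targets gave 12 higher and 2 lower and 25 tested Nrf2 targets 8 higher and 2 lower. The 37 tested interferon-stimulated genes gave 3 higher and 20 lower. Of 53 other matrix metalloproteinases and ADAM-type proteases, the list that holds Adamtsl4, 7 were higher and 26 lower, and of 69 other semaphorins, ephrins, netrins and slits, the list that holds Ntn4, 9 were higher and 28 lower. Over all tested genes, 351 (1.74%) were called both higher at day 3 than in MEF and lower at day 6 than at day 3. The 40 are among these 351.

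The limits of 3-fold and 5 TPM cut through a continuous range. Just inside the 3-fold limit were Gdpd2 (day 3 mean 3.11 times the next group), Cryab (3.16) and Daam2 (3.31), and just outside were Ociad2 (2.996), Cbr2 (2.968) and Klhdc8a (2.947). Just inside the 5 TPM limit were Snap91 (6.31 TPM), Me3 (6.60) and Arhgef6 (7.35), and just outside were Gm11060 (4.94), Kcnf1 (4.91) and Ackr1 (4.78).

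The choice was also made on the libraries of one replicate number and the levels read in the other, where they had not been used. The 2 libraries of a group lay close together at day 3, and separate cultures are not named. The counts thus describe agreement between libraries and are no test of the day 3 peak. Of 42 genes chosen on replicate 1, day 3 was the highest group for 42 in replicate 2 and at least 3-fold for 39, with a median ratio of 4.26 where chosen and 4.36 where read; the lowest was Sqrdl (2.28). Of 46 genes chosen on replicate 2, day 3 was the highest for 44 in replicate 1 and at least 3-fold for 38 (4.26 and 4.02), with Katnal1 the lowest at 0.110.

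Levels in TPM depend on which transcripts the reads were given to. Coding transcripts made up under 50% of the day 3 TPM for 10 genes: Col15a1, Adamtsl4 (13.2%), Lmo7, Entpd1 (22.5%), Spon2 (26.4%), Kank4, Gdpd2, Cys1, Cdh26 and Hes5. A short transcript turns few reads into a high TPM, and for Adamtsl4 a transcript of 288 bases held 78.7% of the day 3 TPM. By reads, a non-coding transcript led in 3 genes (Spon2, Gdpd2 and Arhgef6). Counted on coding transcripts alone, 36 genes met the limits, 34 of them among the 40, and Gdpd2, Me3, Arhgef6, Kank4, Cdh26 and Hes5 did not. On TMM-scaled counts in place of TPM, 59 genes met the limits, 37 of them among the 40, and Gdpd2, Me3 and Kank4 did not. C1qtnf7 (43515538 to 43618803 on chromosome 5) overlaps the antisense gene Gm15866, and whether the counting used strand is not given in the sources used here.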

How the data were processed

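RNA-seq was done on 10 libraries in 5 groups of 2, grouped by sample title, from total RNA with a stranded mRNA kit and single reads of 50 bases, per the labels' protocols. The authors quantified transcripts with Salmon 0.8.2, and mm10 is the genome build named, per the submitters' processing notes; the annotation release is not given in the sources used here. Per the file headers, the deposited tables hold, for each of 109617 transcripts, its length, its effective length, its TPM and its estimated count. Transcripts were summed here to 45706 genes, and estimated counts were rounded to whole numbers. Positions come from GENCODE M21 (GRCm38), in which 98.8% of the genes were matched by ID.

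Genes were filtered with filterByExpr (minimum count 10, minimum total 15; 20165 genes kept), scaled with TMM and tested in edgeR 4.0.16 under R 4.3.3 by quasi-likelihood on all 10 libraries, with a mean per group. Calls needed a Benjamini-Hochberg adjusted p under 0.05 over all tested genes and a log2 fold change of at least 1 in size. Alternatives were DESeq2 1.42.0, limma 3.58.1 on log2 TPM, other filters and scalings, a length offset, a replicate block and leaving out each library. With 2 libraries against 2 an exact permutation test cannot give a p under 0.333, so none was made. Figures used matplotlib 3.10.9 and tables pandas 2.3.3.

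The genes and the lists were chosen with earlier results of these data known. Named by rule were the 20 genes with the highest day 3 mean, the 10 with the highest ratio to the next group, the 3 largest rises and falls called in each comparison, genes in a listed pathway, and those nearest the limits. This covers 31 of the 40, and the 9 others were named after their values were seen, so that every gene is accounted for. Roles were assigned by hand after the genes were known. The result of 1 list is not reported here.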

Additional observations from a re-analysis of the deposited data

How the results depend on the processing

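With other limits 72 genes (day 3 minimum of 1 TPM), 111 genes (2-fold limit) and 21 genes (4-fold limit) would have been chosen in place of 40, and leaving out single libraries or one replicate number gave 40 to 46. For day 6 against MEF, the count of lower genes was 2 as reported, 1 with library size scaling without TMM, 11 with no fold change minimum, 4 among genes chosen on coding transcripts, and 1 to 2 when each replicate was left out. For day 9 against day 6 with no fold change minimum, 1 gene was higher and 26 were lower. For ESC against day 9, 3 genes were higher with no fold change minimum and 1 among genes chosen on coding transcripts. For ESC against MEF, with limma on log2(TPM + 1) the counts were 1 higher and 16 lower, since the pseudocount shrinks the change of low genes. Library size scaling without TMM put the all-gene median at 0.43 (log2) for day 6 against MEF and at 0.44 for ESC against MEF, where TMM gave 0.16 and 0.10. The other counts (125 of 139 values in all) stayed within 1.5 times those reported. Of 220 values for single genes in named comparisons, 214 kept their direction and call, 6 kept the direction but lost the call, and 0 reversed. Counts for the other genes of the lists were also made with other scalings, a choice made after seeing the data, and the balance of higher and lower at day 3 against MEF turned for solute carriers and for the bHLH and homeobox list. Deviations of same-numbered libraries correlated at -0.0205 to 0.0222, so no strong effect shared by replicate number was seen. Such correlations cannot show whether same-numbered libraries came from the same cells. A replicate block gave 18 higher and 2 lower for day 6 against MEF and 14 lower for day 9 against day 6. For ESC it gave 28 lower against day 9, and 4 higher and 27 lower against MEF. All these counts were the same as without the block. The smallest day 3 read number behind any of the 40 was 229.4 (Gng13), and MEF levels of Gng13, Hes5 and Sost rest on 4 reads or fewer per library.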

Other observations

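By the same limits on group means, 26 genes with no coding transcript were also highest at day 3. Most of them rested on a few reads, such as Mir1945 (mean of 1.5 reads at day 3, 0 and 10.5 TPM) and Mir679 (2 reads, 0 and 14.3 TPM). For 3 of them, singled out after their values were seen, the levels were as follows. By mean reads at day 3, E330013P04Rik led the 26, while Gm15866 and Gm29630 were below Gm7336. Gm7336 had a mean of 418.6 reads at day 3, but 1.61 and 13.8 TPM in its 2 libraries. E330013P04Rik, a long intergenic non-coding RNA on chromosome 19 (60144675 to 60162591, GRCm38), was at 0.727 and 0.879 TPM in MEF, 7.46 and 7.96 at day 3, 0.505 and 0.606 at day 6, 0.136 and 0.166 at day 9 and 0.212 and 0.159 in ESC, with a mean of 823 reads at day 3. Gm15866, an antisense gene inside the span of C1qtnf7 on chromosome 5 (43549928 to 43601731), was at 0.180 and 0.125 TPM in MEF, 7.59 and 8.47 at day 3, 1.54 and 0.976 at day 6, 0.669 and 0.661 at day 9 and 0.0216 and 0 in ESC, with a mean of 384 reads at day 3. Gm29630, a long intergenic non-coding RNA on chromosome 1 (132274716 to 132280411), was at 0.622 and 0.251 TPM in MEF, 11.4 and 11.7 at day 3, 3.11 and 3.04 at day 6, 2.05 and 1.59 at day 9 and 2.62 and 2.79 in ESC, with a mean of 96.5 reads at day 3. In each of the 3 genes both day 3 libraries were above every other library.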
